A study of Homo sapiens with 4 samples.

Results

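Intraflagellar transport, the BBSome and the ciliary transition zone were followed through 54 listed genes in NOMO-1, an established human line from a monocytic leukaemia, with ZFX, a zinc finger transcription factor, knocked down. A gene was measured where a probe set of the array carried its symbol alone, and of several such sets the one brightest on average was kept. On this rule 53 of the 54 genes were measured among 18417 genes in all, and BBIP1 was not analysed here. The genes were chosen by their place in the machinery, by a list drawn up with the knock-down differences of these arrays known, among them the wide gap of IFT22. The values of IFT22, and the calls and counts of the listed genes, are therefore a description and support nothing. Counts that hold IFT22 are also given without it. Among the 53 genes only DYNC2H1 had more than 1 probe set, so the choice of probe set touched no other member. Levels are log2 intensities, and those of different genes come from different probes and are not set against each other.

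The ZFX knock-down group held 2 arrays, from cells given the hairpin virus SH1 or SH3, and the control group held 2 arrays, from cells given a scrambled hairpin virus (SCR) or a GFP virus (LEN-GFP). By the labels the control cells are wild type for ZFX, and all 4 cultures came from the 1 line, received lentivirus at a multiplicity of infection of 1 and gave RNA 48 h after selection. No construct was repeated, so the spread within a group is that between constructs and arrays together, and it may be partly technical. The question was how far the parts of the ciliary transport machinery differ between cells with less ZFX and control cells.

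Cilia are built and maintained by trains of protein complexes that run along the axoneme. IFT-B trains carry cargo toward the tip with the heterotrimeric kinesin, IFT-A trains return with the ciliary dynein, the BBSome links membrane proteins to the trains, and the transition zone at the base gates what enters. Blood cells are generally regarded as lacking a primary cilium, and in T lymphocytes some IFT-B subunits are known to act in vesicle traffic to the immune synapse. Many genes of this machinery are known to carry, near their start, an X-box that RFX transcription factors bind.

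The letters GTTGCC, one arm of the X-box, were looked for on both strands in windows from 250 bases before to 50 bases after the gene start (RefSeq, GRCh38.p14, first listed window of a gene). A window was at hand for 49 of the 54 genes, and 22 of these 49 (44.9%) held the letters, against 12.6% of 15843 protein-coding genes and 12.4% of the 10005 genes tested that had a window. Shown are 60-base stretches before the start that hold the letters, for 7 tested genes whose hairpin and control arrays did not overlap. BBS1 and TCTN1 also held the letters and are not shown. Of the copies before the start, the nearest began 208 bases away in TCTN3 (the reverse complement), 221 in BBS10 and between 8 and 40 in the others. The first 4 were lower on both hairpin arrays and the last 3 were higher. Capitals mark GTTGCC or its reverse complement.
CLUAP1, chr16:3500944-3501003, plus strand: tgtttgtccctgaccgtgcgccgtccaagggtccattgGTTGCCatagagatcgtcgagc
TCTN3, chr10:95694103-95694162, minus strand: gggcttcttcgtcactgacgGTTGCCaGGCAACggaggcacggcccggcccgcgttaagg
TULP3, chr12:2890824-2890883, plus strand: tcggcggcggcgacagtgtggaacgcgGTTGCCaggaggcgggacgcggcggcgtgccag
TTC8, chr14:88824590-88824649, plus strand: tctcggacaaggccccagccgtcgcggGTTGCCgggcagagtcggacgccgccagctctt
BBS10, chr12:76348604-76348663, minus strand: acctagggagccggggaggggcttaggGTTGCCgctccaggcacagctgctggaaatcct
IFT122, chr3:129440164-129440223, plus strand: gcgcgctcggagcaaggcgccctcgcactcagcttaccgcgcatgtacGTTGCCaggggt
OFD1, chrX:13734688-13734747, plus strand: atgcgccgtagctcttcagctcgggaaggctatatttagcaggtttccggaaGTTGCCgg
TCTN3 carried both arms of the box with 1 base between them. The letters were found beside genes of either direction. Of the 16 genes with a window that were lower on both hairpin arrays, 6 held them (37.5%), against 10 of the 22 other tested genes with a window (45.5%). Most of these 22 had overlapping groups, so the shares do not set lower against higher genes. The letters AGGCCT, the centre of the known ZFX motif, were in 7 of the 49 windows (14.3%), against 11.2% of the windows of genes tested. A match is a description of the letters and not of a bound site.

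ZFX itself had log2 intensities of 10.13 on SH1 and 10.12 on SH3, against 10.65 on LEN-GFP and 10.66 on SCR. That is 69.3% of its control level (log2 -0.53, SE 0.10). Like every gene tested, ZFX did not pass in knock-down against control (adjusted p = 0.797 in limma). LYZ, a marker of the monocytic lineage, had 14.32 on SH1 and 14.20 on SH3, against 14.28 on LEN-GFP and 14.37 on SCR. The log2 of the summed intensities of 10 measured monocytic markers was 15.70 on SH1 and 15.61 on SH3, against 15.73 on LEN-GFP and 15.69 on SCR. Such a sum rests mostly on its brightest markers. Of 19 markers of motile cilia, 14 lay below the intensity filter. The log2 of the summed intensities of the 19 was 10.72 on SH1 and 10.68 on SH3, against 10.70 on LEN-GFP and 10.75 on SCR. For T cell, erythroid, and epithelial and fibroblast markers the log2 of the summed intensities was 8.86, 8.88 and 11.16 on SH1 and 8.91, 8.68 and 11.33 on SH3. On LEN-GFP it was 8.84, 8.62 and 11.16, and on SCR 8.97, 8.84 and 11.24. Their part in the results was not tested.

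More of the tested ciliary genes were lower than higher in ZFX knock-down cells, with CC2D2A, BBS10 and IFT122 on the higher side. The list was drawn up with these differences known, so its shares beside those of all genes are a description and not support. Both hairpin arrays lay below both controls on 18 of the 41 tested members (43.9%), where all 12892 genes tested gave 19.0%, and on 17 of 40 (42.5%) without IFT22. They lay above both controls on 5 members (12.2%), where all genes gave 18.2%, and on 12 without SH1, where all genes gave 38.7%, and 10 without LEN-GFP, where all genes gave 33.5%. The mean difference was below 0 for 28 of the 41 (68.3%), where all genes gave 50.8%, and for 27 of 40 (67.5%) without IFT22. The median log2 difference of the 41 members, IFT22 included, was -0.12, beside -0.0029 over all genes tested, and it was -0.21 without SCR. Each array measured the RNA of a whole culture, so less RNA per cell and fewer cells with the RNA cannot be told apart. No member passed an adjusted p of 0.05 in limma (Benjamini-Hochberg over all genes tested), where 0 of 12892 genes (0%) passed either way, and ordinary statistics without moderation also called 0 members. At an unadjusted p under 0.05, limma gave 12 members lower (11 without IFT22), where all genes gave 3.26%, and 2 higher, where all genes gave 2.78%. Ordinary statistics gave 8 members in all, but the share of all genes was not computed there, so nothing is drawn from that count.

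**Figure D1:**
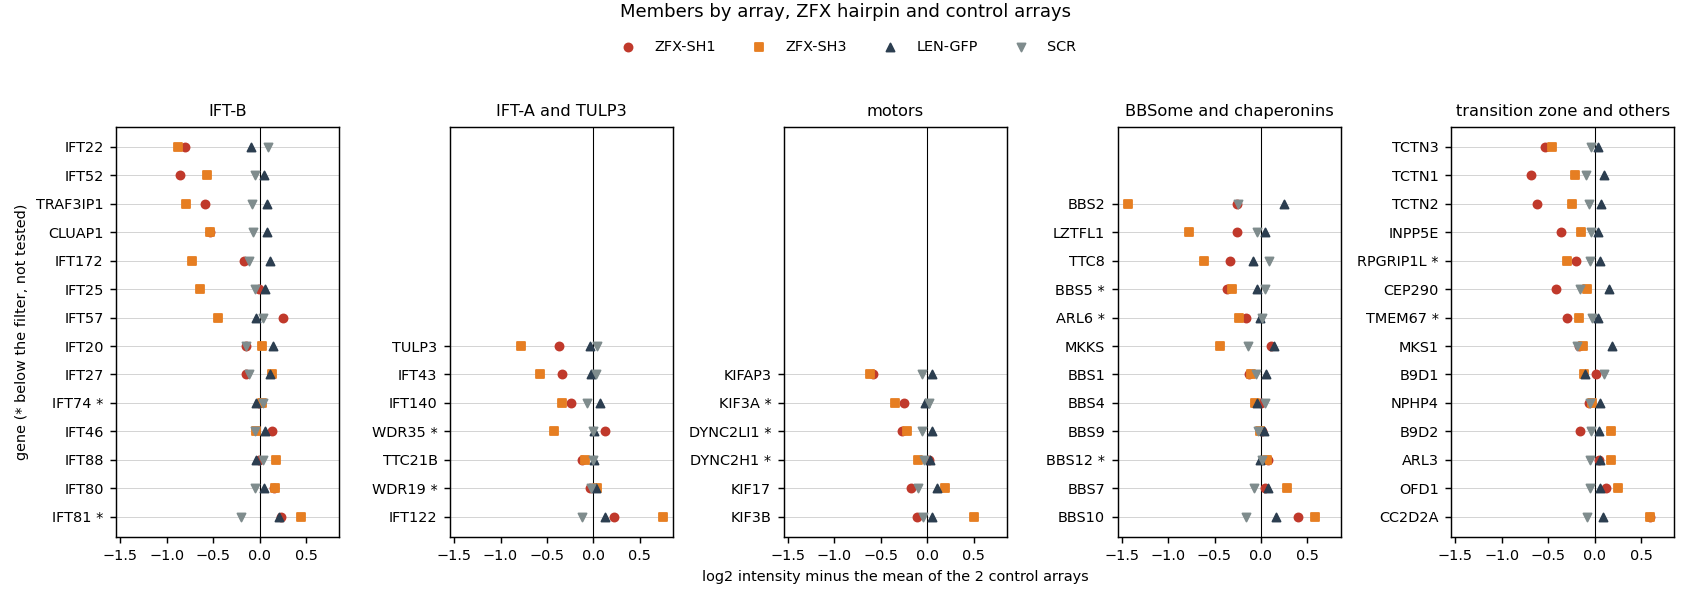
Log2 intensity on each array minus the mean of the 2 control arrays (x axis) for the 53 measured genes, by role, with points for ZFX-SH1, ZFX-SH3, LEN-GFP and SCR; an asterisk marks genes below the intensity filter. The lowest hairpin point is BBS2 on SH3 (-1.43), IFT22 is low on both hairpins (-0.81 and -0.88), and the highest is IFT122 on SH3 (0.75).

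IFT-B held genes set well apart from the controls beside others that were level. IFT22, a small GTPase of the Rab-like kind that sits on the core of the complex, had log2 intensities of 7.30 on SH1 and 7.23 on SH3, against 8.02 on LEN-GFP and 8.20 on SCR. Both hairpin arrays were well below both controls, at 55.7% of the control level (log2 -0.84, SE 0.11). IFT52, a structural subunit that holds the core together, had 8.32 on SH1 and 8.61 on SH3, against 9.22 on LEN-GFP and 9.12 on SCR. The groups were again apart, by 0.51 between the nearest arrays, and IFT52 stood at 61.2% of control (-0.71, SE 0.15).

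The peripheral subunits TRAF3IP1 and CLUAP1 followed. TRAF3IP1, also known as IFT54, a subunit that binds tubulin and microtubules, had 6.78 on SH1 and 6.58 on SH3, against 7.45 on LEN-GFP and 7.29 on SCR (-0.69, SE 0.11). CLUAP1, also known as IFT38, had 6.64 on each hairpin array, against 7.25 on LEN-GFP and 7.10 on SCR (-0.54, SE 0.08). In both genes the hairpin arrays were below both controls, and for CLUAP1 the hairpins differed by less than 0.01 on the log2 scale. IFT172, the largest IFT-B subunit, had 7.63 on SH1 and 7.06 on SH3, against 7.91 on LEN-GFP and 7.69 on SCR. Its SH1 value lay just under SCR, and most of its difference of -0.45 (SE 0.21) came from SH3.

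Other IFT-B genes divided between the hairpins or stayed level. IFT25, a small partner of IFT27, had 8.73 on SH1 and 8.09 on SH3, against 8.79 on LEN-GFP and 8.68 on SCR, so that SH3 alone was low. IFT57, a subunit close to the kinesin in the train, had 10.53 on SH1 and 9.84 on SH3, against 10.25 on LEN-GFP and 10.33 on SCR, with the hairpins on either side of the controls. IFT27, the other Rab-like GTPase of the complex, had 7.81 on SH1 and 8.10 on SH3, against 8.08 on LEN-GFP and 7.85 on SCR, and the groups overlapped. The mean differences of IFT20, a subunit also found at the Golgi, IFT46 and IFT88, both of the core, lay between -0.06 and 0.09 with overlapping groups. IFT80, a peripheral subunit, was the one tested IFT-B gene above both controls, with 10.42 on each hairpin array, against 10.31 on LEN-GFP and 10.22 on SCR (0.16, SE 0.11). IFT74 and IFT81, which pair to form the tubulin-binding module of the core, were under the intensity filter, with differences of 0.01 and 0.34. IFT74, the dimmest, had 5.15 on SH1 and 5.18 on SH3, against 5.12 on LEN-GFP and 5.19 on SCR. In all, 5 of 12 tested IFT-B genes were below both controls (41.7%, and 4 of 11 without IFT22), where all genes gave 19.0%. Above both controls was 1, where all genes gave 18.2%. The median difference of the 12, IFT22 included, was -0.22, or -0.49 without SH1.

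Of the 5 tested IFT-A genes, 4 lay below both controls on both hairpins and IFT122 above them, where all genes gave 19.0% below and 18.2% above. IFT43, a small subunit of the complex, had 6.83 on SH1 and 6.59 on SH3, against 7.14 on LEN-GFP and 7.20 on SCR (-0.46, SE 0.11). TULP3, the adaptor that carries membrane receptors into cilia with IFT-A, had 7.89 on SH1 and 7.48 on SH3, against 8.23 on LEN-GFP and 8.30 on SCR (-0.58, SE 0.16). In both genes the hairpin arrays lay below the controls, with SH3 the lower hairpin. The differences of IFT140 (-0.29, SE 0.11) and TTC21B (-0.11, SE 0.11), further subunits of the complex, had the same separation of the groups and were smaller. IFT122, a core subunit, went the other way, with 9.58 on SH1 and 10.10 on SH3, against 9.47 on LEN-GFP and 9.23 on SCR. It was above both controls on both hairpins, at 140.1% of control (0.49, SE 0.21), mostly from SH3. WDR19 and WDR35, the remaining subunits, were too dim to be tested and differed by -0.0020 and -0.15. WDR35 had 6.51 on SH1 and 5.96 on SH3, against 6.39 on LEN-GFP and 6.38 on SCR, with SH3 alone low. The median of the 5 tested genes was -0.29.

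Of the 3 tested motor genes, KIFAP3 alone had both hairpin arrays below both controls, where all genes gave 19.0%. KIFAP3, the non-motor subunit that joins the heterotrimeric kinesin to its cargo, had 8.07 on SH1 and 8.04 on SH3, against 8.71 on LEN-GFP and 8.60 on SCR. The groups were 0.53 apart at the nearest arrays, and the level was 66.0% of control (-0.60, SE 0.11). KIF3B, a motor subunit of the same kinesin, had 8.18 on SH1 and 8.80 on SH3, against 8.34 on LEN-GFP and 8.25 on SCR, so SH3 was the highest array and SH1 the lowest. KIF3A, its partner, was too dim to be tested and had 5.82 on SH1 and 5.73 on SH3, against 6.06 on LEN-GFP and 6.10 on SCR, also with no overlap. The homodimeric kinesin gene KIF17 differed by 0.01 (SE 0.15). The ciliary dynein genes DYNC2LI1 and DYNC2H1, for a light intermediate chain and the heavy chain, were too dim to be tested and differed by -0.25 and -0.04, with -0.06 on the other probe set of DYNC2H1. The hairpin arrays of DYNC2LI1 were below both controls. DYNC2H1 had 5.50 on SH1 and 5.38 on SH3, against 5.51 on LEN-GFP and 5.45 on SCR. The median of the 3 tested kinesin genes was 0.01, and it took the sign of the hairpin kept: 0.19 without SH1 and -0.18 without SH3.

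BBSome genes were uneven. BBS2, a subunit of the complex, had 8.69 on SH1 and 7.52 on SH3, against 9.20 on LEN-GFP and 8.70 on SCR. SH3 was far below the other arrays, SH1 was level with SCR, and the controls themselves were 0.50 apart, so the difference of -0.85 had an SE of 0.42. TTC8, also known as BBS8, had 7.25 on SH1 and 6.97 on SH3, against 7.49 on LEN-GFP and 7.67 on SCR, with no overlap (-0.47, SE 0.13). LZTFL1, a negative regulator of BBSome entry into cilia, had 7.42 on SH1 and 6.90 on SH3, against 7.72 on LEN-GFP and 7.63 on SCR, also with no overlap (-0.51, SE 0.19). The subunits BBS1, BBS4, BBS7 and BBS9 differed by between -0.12 and 0.17, and BBS1 alone of these was below both controls. BBS7 had 8.90 on SH1 and 9.14 on SH3, against 8.92 on LEN-GFP and 8.78 on SCR, with overlap.

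The chaperonin-like genes that help assemble the BBSome did not move as 1 group. BBS10 had 9.03 on SH1 and 9.21 on SH3, against 8.79 on LEN-GFP and 8.47 on SCR. Both hairpin arrays were above both controls, at 140.6% of control (0.49, SE 0.16), though the controls were also 0.32 apart. MKKS, also known as BBS6, had 8.27 on SH1 and 7.72 on SH3, against 8.30 on LEN-GFP and 8.03 on SCR, and only SH3 was lower than both controls. BBS12, BBS5 and ARL6, the small GTPase that recruits the BBSome to membranes, were too dim to be tested and differed by 0.07, -0.34 and -0.20. ARL6 had 5.67 on SH1 and 5.59 on SH3, against 5.82 on LEN-GFP and 5.84 on SCR. Of the 9 tested genes, 4 were below both controls and 1 above, where all genes gave 19.0% and 18.2%. The median of the 9 was -0.12, or -0.0029 without SH3.

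In the transition zone the 3 tectonic genes were lower and CC2D2A was higher. TCTN3 had 9.62 on SH1 and 9.69 on SH3, against 10.19 on LEN-GFP and 10.12 on SCR, which is 70.7% of control (-0.50, SE 0.11). TCTN1 had 7.98 on SH1 and 8.45 on SH3, against 8.76 on LEN-GFP and 8.56 on SCR (-0.45, SE 0.19). TCTN2 had 6.99 on SH1 and 7.37 on SH3, against 7.68 on LEN-GFP and 7.54 on SCR (-0.43, SE 0.15). The groups did not overlap in any of the 3 tectonics, which are secreted or membrane proteins of the gate, and SH1 was the lower hairpin in each. CC2D2A, a coiled-coil protein of the same module as the tectonics, had 7.40 on each hairpin array, against 6.89 on LEN-GFP and 6.72 on SCR. It was 1.51-fold higher (0.60, SE 0.09), the highest difference of any measured member.

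The rest of the transition zone group lay closer to the controls. CEP290, which bridges microtubules and membrane, had 6.74 on SH1 and 7.07 on SH3, against 7.31 on LEN-GFP and 6.996 on SCR, with overlap. INPP5E, the phosphoinositide phosphatase of the ciliary membrane, had 8.12 on SH1 and 8.33 on SH3, against 8.51 on LEN-GFP and 8.44 on SCR, and was below both controls (-0.26, SE 0.12). OFD1, a protein of the distal centriole, had 11.08 on SH1 and 11.20 on SH3, against 11.01 on LEN-GFP and 10.90 on SCR, and was above both (0.18, SE 0.11). MKS1, B9D1 and B9D2 of the gate's B9 complex, NPHP4, and the small GTPase ARL3, which releases lipid-modified cargo in cilia, differed by between -0.15 and 0.11 with overlapping groups. TMEM67 and RPGRIP1L were too dim to be tested and differed by -0.23 and -0.25. TMEM67 had 6.15 on SH1 and 6.27 on SH3, against 6.48 on LEN-GFP and 6.41 on SCR. Of 12 tested genes 4 were below both controls (33.3%) and 2 above (16.7%), where all genes gave 19.0% and 18.2%. The median of the 12 was -0.10, or -0.20 without SCR and -0.043 without LEN-GFP.

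**Figure D2:**
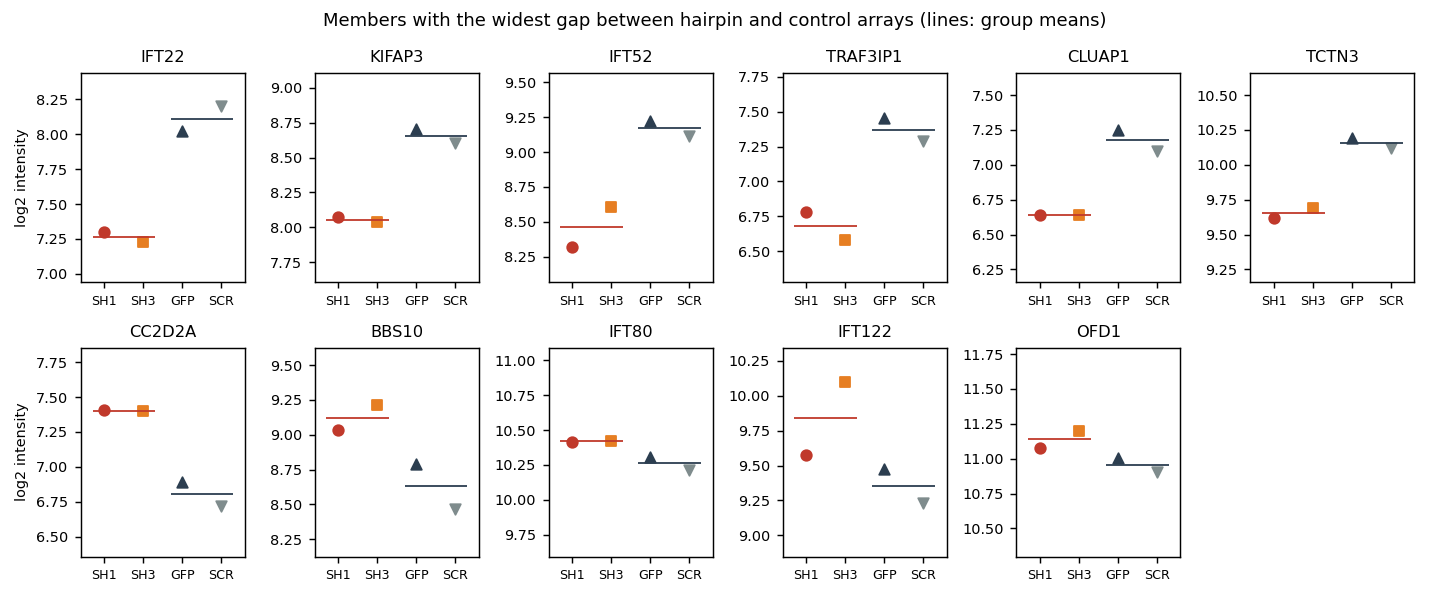
Log2 intensity (y axis) of the 11 tested genes with the widest gap between hairpin and control arrays, the 6 lower in the top row and the 5 higher in the bottom row, with 1 point per array (SH1, SH3, LEN-GFP as GFP, SCR) and lines at group means. Every panel spans the same 1.5 log2 units, and the gap is widest for IFT22 (0.72) and narrowest for OFD1 (0.07).

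**Figure D3:**
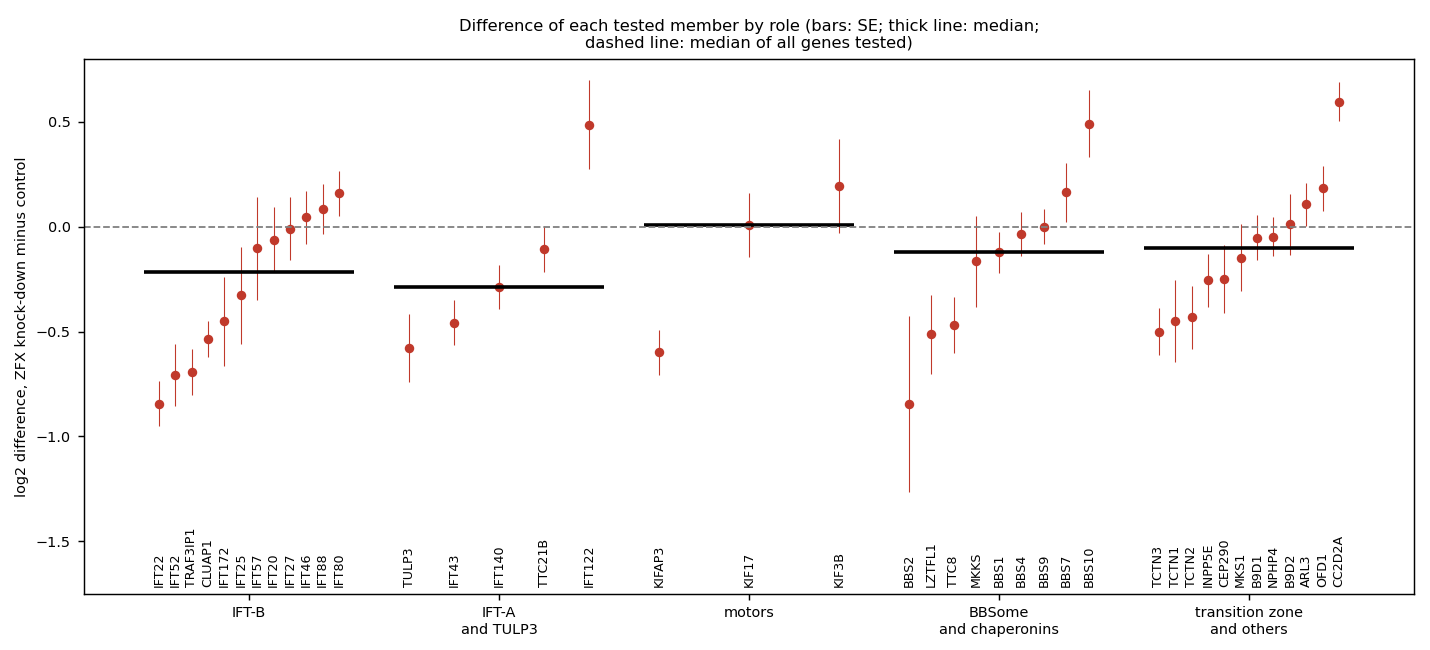
Log2 difference, ZFX knock-down minus control (y axis), of the 41 tested genes by role, with SE bars, the role median as a thick line and the median of all genes tested as a dashed line. The medians run from -0.29 for IFT-A with TULP3 to 0.01 for the motors, and every role holds genes on both sides of 0.

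Set side by side, the tested transport genes, IFT22 included, had the lowest median of the 4 roles, with -0.29 over the 17 genes of IFT-A and IFT-B. Without IFT22 the middle of the 16 transport genes lay between IFT140 (-0.29) and TTC21B (-0.11). The middle one of the 11 IFT-B genes was then IFT57 (-0.10), so the order of the roles is a description. The BBSome group had -0.12, the transition zone group -0.10 and the motors 0.01. Over all measured genes, dim ones included, the medians were -0.08 for IFT-B, -0.15 for IFT-A, -0.14 for the motors, -0.14 for the BBSome group and -0.19 for the transition zone group, so the order of the roles was different without the filter. Without SH3 the tested medians were -0.15 for IFT-B and -0.16 for the transition zone group. Within the small GTPases, IFT22 at -0.84 was far from IFT27 at -0.01, ARL3 at 0.11 and the dim ARL6 at -0.20. A separation of at least 0.3 between the nearest arrays, a limit chosen after the values were seen, was met by 8 tested members on the lower side (7 without IFT22), where all genes gave 1.23%, and by 1, CC2D2A, on the higher side, where all genes gave 1.02%. The 8 were IFT22, IFT52, TRAF3IP1, CLUAP1, IFT43, TULP3, KIFAP3 and TCTN3, of which 6 are transport genes (5 without IFT22).

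The hairpins were then each set against both controls, with the lone array assumed to vary like the control pair. On the SH3 array 14 of the 41 tested members were called lower by limma at an adjusted p of 0.05, where all genes gave 6.90%, and 2 were called higher, where all genes gave 6.27%. Without IFT22, 13 of 40 were called lower. The list was drawn up with differences of these arrays known, so these calls and those on SH1 below are a description and not support. SH3 was under the control mean on 28 members, where all genes gave 50.3%, and on 27 of 40 (67.5%) without IFT22. Besides IFT22, transport gave 8 of the 13, namely IFT25, IFT52, IFT57, IFT172, CLUAP1, TRAF3IP1, IFT43 and TULP3. The others were the motor gene KIFAP3, the BBSome genes BBS2, TTC8 and LZTFL1, and TCTN3 of the transition zone. Leaving IFT22 aside, BBS2 fell furthest, to -1.43 relative to the controls (SE 0.20, adjusted p = 0.00298 in limma). TRAF3IP1 (-0.80, SE 0.13, adjusted p = 0.00536 in limma), TULP3 (-0.78, SE 0.14, adjusted p = 0.00778) and LZTFL1 (-0.77, SE 0.13, adjusted p = 0.00616) came after it. IFT122 (0.75, SE 0.15, adjusted p = 0.0126 in limma) and CC2D2A (0.60, SE 0.13, adjusted p = 0.0167) were the members called higher. These calls compare 1 array with 2 and have no replicate of the hairpin behind them. MPO, a myeloid granule enzyme, was also low on SH3 alone, with 13.30 on SH1 and 12.31 on SH3, against 13.30 on LEN-GFP and 13.36 on SCR, and ITGAX was called higher there. Of the 10 monocytic markers 1 was called lower and 1 higher on SH3, and their part in these calls was not tested.

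On the SH1 array 0 of the 41 members were called by limma after adjustment, where all genes gave 0.248% lower and 0.171% higher. At an unadjusted p under 0.05, 13 members were lower (12 without IFT22), where all genes gave 5.53%, and 2 were higher, where all genes gave 4.55%. SH1 was under the control mean on 29 members, where all genes gave 50.2%, and on 28 of 40 (70%) without IFT22. The lowest adjusted p on SH1 was 0.0514 for IFT52 in limma, at -0.85 relative to the controls. Of the 10 monocytic markers, CSF1R was called higher on SH1, with 9.92 on SH1 and 9.17 on SH3, against 9.04 on LEN-GFP and 8.89 on SCR, and its part was not tested. In the tectonics SH1 was the stronger hairpin, with -0.69 for TCTN1, -0.62 for TCTN2 and -0.54 for TCTN3 on SH1 beside -0.21, -0.24 and -0.46 on SH3. The 2 comparisons share their control arrays, so the likeness of their directions is not given as a result.

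**Figure D4:**
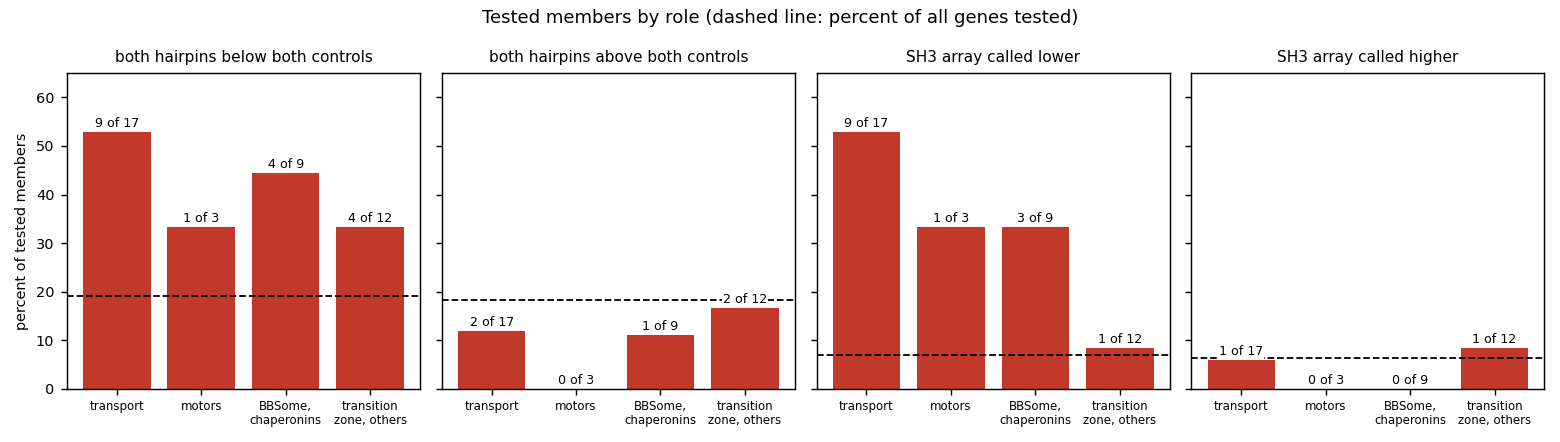
Percent of tested members (y axis) by role, with both hairpin arrays below or above both controls and called lower or higher on the SH3 array in limma; counts stand over the bars and the dashed line is the percent of all genes tested. Transport members, IFT22 included, have 9 of 17 below both controls and 9 of 17 called lower on SH3, while the transition zone group has 1 of 12 called lower on SH3.

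Set against each other without the controls, SH3 was below SH1 on 19 of the 41 tested members (46.3%), where all genes gave 49.9%. Without IFT22 it was 18 of 40. By role SH3 was below SH1 on 10 of 17 tested transport genes (58.8%, and 9 of 16 without IFT22) and 6 of 9 BBSome genes (66.7%). In the transition zone group SH3 was below SH1 on 2 of 12 genes (16.7%). The median of SH3 minus SH1 was -0.07 for transport (IFT22 included), -0.06 for the BBSome group and 0.12 for the transition zone group. The largest such differences were -1.18 for BBS2, -0.70 for IFT57 and -0.64 for IFT25 on the lower side and 0.62 for KIF3B and 0.52 for IFT122 on the higher side. With 1 array for each hairpin these values have no test. The controls also differed, and SCR was below LEN-GFP on 33 of the 41 tested members (80.5%), where all genes gave 58.6%. Without IFT22 this was 33 of 40 (82.5%). The median of SCR minus LEN-GFP was -0.10 for the members beside -0.03 for all genes tested.

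For other genes around the cilium, from lists put together for this comparison, limma called 0 after adjustment in knock-down against control. Among 23 tested further genes of transport, motors, BBSome and transition zone, 9 were below both controls, where all genes gave 19.0%, and 2 above, where all genes gave 18.2%, with a median of -0.04. The lowest 3 by gap were INVS (-0.47), IQCB1 (-0.45) and TMEM138 (-0.33). INVS and TMEM138 were picked after their values were seen and are among the 9, so that count is a description and supports nothing. IQCB1, a partner of CEP290, was called lower on the SH3 array, with 10.53 on SH1 and 10.30 on SH3, against 10.87 on LEN-GFP and 10.85 on SCR (adjusted p = 0.0132 in limma). KIF3C, a kinesin relative of KIF3B, was called higher there, with 8.70 on SH1 and 9.17 on SH3, against 8.62 on LEN-GFP and 8.53 on SCR (adjusted p = 0.02645 in limma). Of 30 tested genes for the basal body and the start of cilium growth, 3 were below both controls and 5 above, with a median of 0.02, and RAB8A, the GTPase of ciliary vesicle delivery, was the 1 called on SH3.

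RAB8A had 10.85 on SH1 and 9.69 on SH3, against 10.84 on LEN-GFP and 10.78 on SCR, so that SH3 alone was low. For the counts that follow, all genes tested gave 19.0% below both controls and 18.2% above. Hedgehog genes, whose signal passes through the cilium, gave 3 below and 4 above of 16 tested, with a median of 0.01, and CDON, a Hedgehog co-receptor, was called lower on SH3. Known regulators of cilium genes, the RFX factors among them, gave 3 below and 1 above of 9, with a median of -0.16, and RFX7 and MYB were called lower on SH3. Genes of cilium disassembly gave 1 below and 5 above of 9, with a median of 0.12, and KIF2A, a microtubule-depolymerising kinesin, was called lower on SH1. Partners of IFT proteins at the immune synapse and the Golgi gave 0 below and 1 above of 7, with a median of 0.03, and RAB29 was called higher on SH3. Motile cilium markers gave 1 below and 2 above of 5 tested, and FOXJ1, the master factor of motile cilia, had 6.84 on SH1 and 6.75 on SH3, against 6.63 on LEN-GFP and 6.72 on SCR.

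Of the 12 members under the intensity filter, 6 had both hairpin arrays below both controls and 2 above, with mean differences from -0.34 to 0.34. All genes with no filter gave 18.6% below and 17.4% above, and the share among dim genes alone was not computed. Their mean log2 intensities ran from 5.16 to 6.51, and with no detection call in the table, low expression and none look alike there.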

How the data were processed

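RNA of 4 NOMO-1 cultures was measured on 1 array each (2 ZFX knock-down, 2 control). The authors deposited linear intensities for 33297 probe sets. Per the submitters' processing notes these came from RMA and Affymetrix Expression Console 1.1, and how RMA's log2 output was made linear is not stated there. The number of arrays limits the precision, and the medians were 189.0 (SH1), 186.0 (SH3), 184.8 (LEN-GFP) and 189.8 (SCR).

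The deposited values were put on the log2 scale, adding nothing. Of the probe sets, 19460 had 1 symbol in the platform annotation, 1754 several and 12083 none, and 0 symbols needed an update through RefSeq. Genes in the dimmest 30% (mean log2 under 6.70) were dropped, so 12892 of 18417 genes were tested with limma 3.58.1 in R 4.3.3 (eBayes with trend, two-sided, Benjamini-Hochberg over all genes tested, threshold 0.05). The fit of 4 arrays had 2 residual degrees of freedom and the fits of 3 arrays had 1. The fit was also run on simulated data with changes larger than any member's, so that run does not show its power at the sizes reported here.

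The members, roles and other lists were chosen with earlier results of these data known. Full values were given for the 6 lower and up to 6 higher tested members of widest gap (5 had any), for members called in a fit and for the brightest and dimmest member of each role; other values fill out a role. The alternatives were other filters, an offset of 16, no trend, no moderation, quantile normalization again, the mean of probe sets and leaving out each array.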

Additional observations from a re-analysis of the deposited data

How the results depend on the processing

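The count of 0 members called in knock-down against control also came out under other filters, an offset, no trend, no moderation, quantile normalization again and with any array but SH1 left out; leaving out arrays gave 0 to 16, the 16 being SH3 against both controls. On SH3 the count of 16 (13.2% of all genes called) became 8 of 20 with the lowest 50% of genes left out (15.2%) and lay between 15 and 18 in the other settings (7.6% to 16.1%). On SH1 the count of 0 became 3 after quantile normalization again (1.14% of all genes). Leaving out a control in the fits of 1 hairpin leaves no residual degrees of freedom, so it was not run. Members below both controls numbered 20 to 25 (30.3% to 39.8% of all genes) and members above 6 to 12 (29.1% to 38.7%) with arrays left out; with the added limit of 0.3 they were 8 and 1, and with IFT22 left out, also added after the data were seen, 17 and 5, and 15 were called on SH3. With arrays left out the role medians ran from -0.49 to -0.15 for IFT-B (the lowest without SH1), from -0.36 to -0.22 for IFT-A, from -0.18 to -0.0029 for the BBSome group (the highest without SH3), from -0.20 to -0.043 for the transition zone group, from -0.18 to 0.19 for the motors and from -0.21 to -0.093 for all members. With no filter the medians were -0.15 for IFT-A and -0.19 for the transition zone group. The medians of IFT-B and of all members include IFT22. Among 19 named members under 8 settings, 135 values kept direction and call, 16 passed the threshold only without SH1, and 1 changed sign: IFT57 ran from -0.45 without SH1 to 0.25 without SH3. No paired analysis was possible because the array labels give no shared replicate numbers. The cause of these shifts was not tested.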
